A study of Mus musculus with 12 samples.

Results

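Interferon-stimulated genes are transcribed when interferons bind their receptors on a cell. Type I interferons bind the receptor chains Ifnar1 and Ifnar2, and the kinases Jak1 and Tyk2 then activate transcription factors that enter the nucleus with Irf9 and bind a repeated GAAA element in the promoters of these genes. Most of the proteins act against viruses inside the cell, and in liver they are best known from viral hepatitis and from the response to interferon treatment. A set of 9 such genes was followed here in the livers of 12 mice. They are the transcription factor Irf7, the Ifit family proteins Ifit1, Ifit2 and Ifit3, the antiviral enzyme Rsad2 (viperin) and the oligoadenylate synthetase-like protein Oasl1. The others are Ifi44, the ubiquitin-like modifier Isg15 and the protease Usp18, which removes Isg15 from proteins. The members were chosen by gene symbol, and all 9 of 9 were found among the 24296 gene symbols of the expression table, as 31 transcripts.

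Total RNA was sequenced from 3 livers in each of 4 groups of male C57/BL6N mice. The control group, named WT in the labels, received no carbon tetrachloride (CCl4), and what was injected in its place is not given in the sources used here. The model group was injected into the abdomen with CCl4, a toxin that scars the liver, in olive oil. Each injection was 5 mL/kg, with 2 in every week over 8 weeks. The silibinin and phloridzin groups received the same CCl4 and, from week 5, silibinin (a flavonolignan of milk thistle) or phloridzin (a glucoside of phloretin). The phloridzin livers are from the high-dose group of the study. The age of the mice is not given in the sources used here. Values are fragments per kilobase of transcript, scaled to library size (FPKM) and summed over the transcripts of a gene. The libraries held between 83.6 and 110.65 M fragments. Each p-value below sets a difference between group means against the spread between livers within groups, estimated over all groups in the fit. RNA came from whole tissue, so a change in the number of cells of a type and a change in the RNA of each cell cannot be told apart.

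One library stood apart. In phloridzin liver 1, all 9 members were at their highest level of the 12 livers, whereas this liver was the highest for 19.5% of the 13158 genes tested. Its level was between 2.31 and 4.47 times that of the next highest liver over the 9 members (median 3.49). Of all genes tested, 1.91% were at least 2 times the next highest liver there. The depth of this library, 101.8 M fragments, was inside the range of the others. The main differences that involve the phloridzin group are therefore also given without this liver.

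Irf7 is the factor that raises the production of type I interferons once the response has begun. It lies on chromosome 7 (GRCm38, chr7:141262706-141266481, minus strand). Its level was 4.86, 6.84 and 2.97 FPKM in control livers 1 to 3, 5.16, 6.41 and 5.99 FPKM in the model group, 4.50, 3.17 and 1.3 FPKM with silibinin, and 33.2, 6.31 and 7.43 FPKM with phloridzin. The silibinin livers were all below the model livers and below the phloridzin livers, and only phloridzin liver 1 left the range of 1.3 to 7.43 FPKM that held the other 11. The order of group means was silibinin, control, model and phloridzin, and no pair of groups passed the test.

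Proteins of the Ifit family, Ifit1 among them, bind foreign RNA and hinder its translation. The genes of the 3 Ifit members are neighbours on chromosome 19, with Ifit2 at chr19:34550694-34576419, Ifit3 at chr19:34583531-34588731 and Ifit1 at chr19:34640871-34650009. All are on the plus strand. Ifit1 was at 2.29, 5.81 and 2.95 FPKM in control livers 1 to 3, at 2.25, 5.04 and 3.44 FPKM in the model group, at 4.33, 2.71 and 2.28 FPKM with silibinin and at 22.6, 5.21 and 2.63 FPKM with phloridzin. All 4 groups overlapped apart from phloridzin liver 1. Ifit2 was at 1.31, 2.76 and 1.47 FPKM in the control group, 2.74, 4.65 and 3.28 FPKM in the model group, 4.92, 4.53 and 1.37 FPKM with silibinin and 19.4, 2.97 and 2.30 FPKM with phloridzin. The highest control liver and the lowest model liver overlapped narrowly. Ifit3 was at 2.20, 7.05 and 4.11 FPKM in the control group, 3.51, 6.96 and 4.65 FPKM in the model group, 5.76, 5.15 and 2.86 FPKM with silibinin and 27.0, 3.67 and 2.69 FPKM with phloridzin. All 4 groups overlapped. Ifit3 has a close paralog, Ifit3b, and fragments shared by both cannot be assigned with certainty, so the level of each is uncertain.

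**Figure D1:**
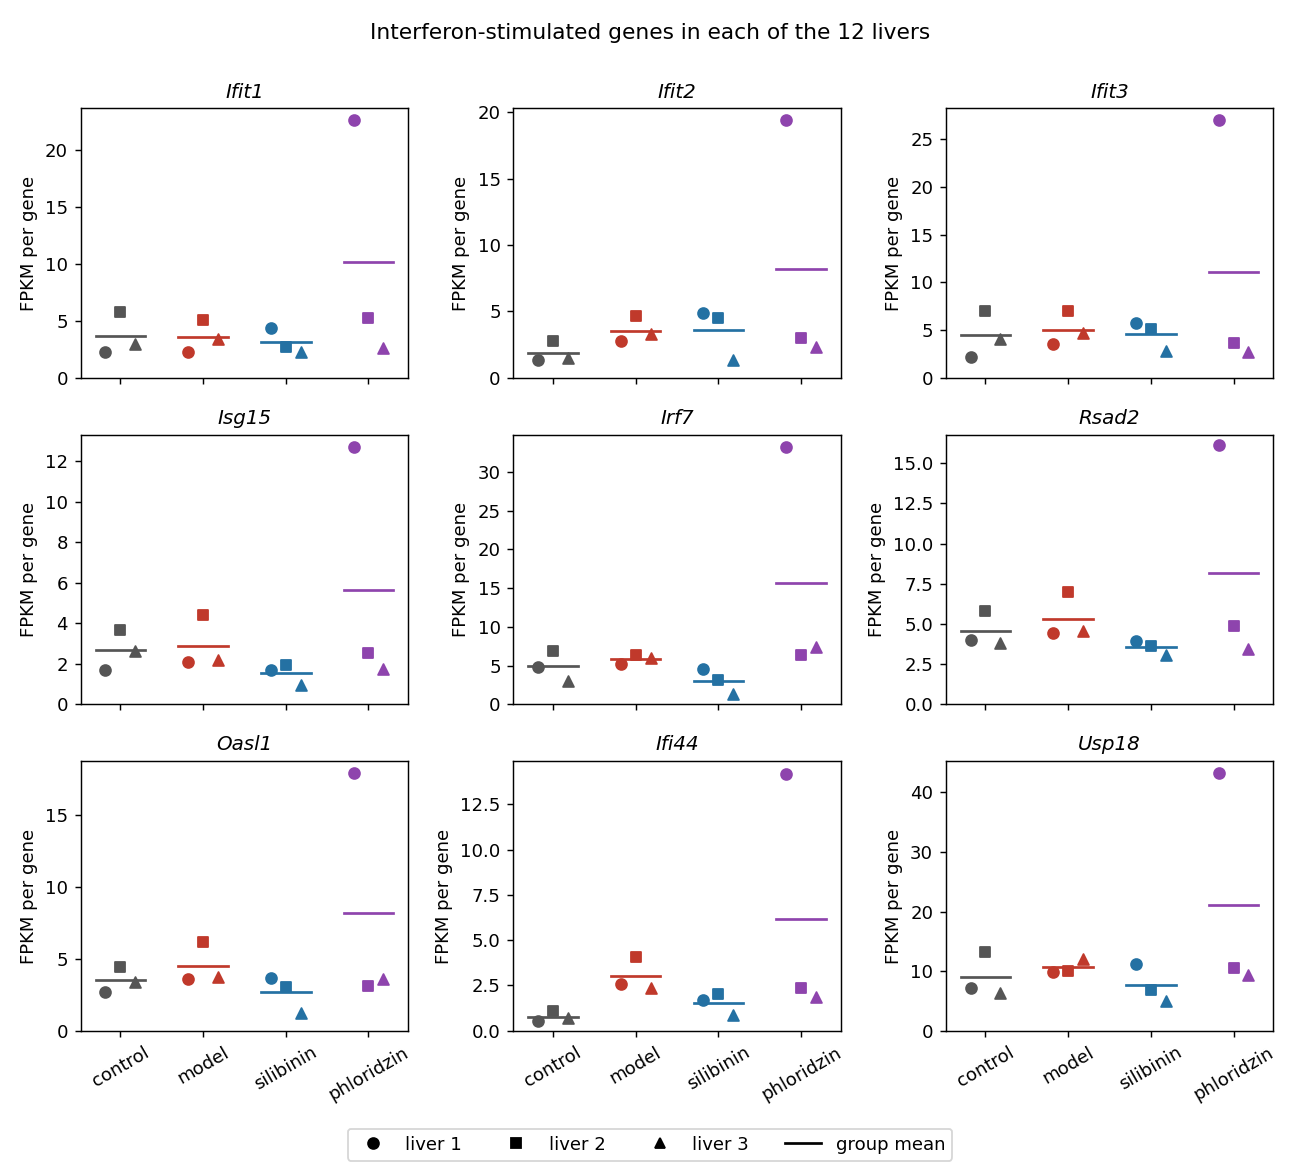
FPKM summed per gene (vertical axes, linear and starting at 0) for the 9 members in the 4 groups (horizontal axes). Each symbol is 1 liver, its shape gives the sample number, and lines are group means; phloridzin liver 1 is the highest point in all 9 panels, for example 22.6 FPKM for Ifit1.

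Rsad2, Oasl1 and Ifi44 are further products of the response. Rsad2 (chr12:26442746-26456452, minus strand), an enzyme that makes a chain-terminating nucleotide, was at 4.01, 5.83 and 3.80 FPKM in the control group, 4.45, 6.97 and 4.59 FPKM in the model group, 3.95, 3.64 and 3.07 FPKM with silibinin and 16.1, 4.90 and 3.46 FPKM with phloridzin. Its silibinin livers lay below its model livers. Oasl1 (chr5:114923240-114937915, plus strand), which in mice limits the translation of Irf7, was at 2.71, 4.42 and 3.38 FPKM in the control livers, 3.59, 6.17 and 3.71 FPKM in the model livers, 3.67, 3.05 and 1.27 FPKM with silibinin and 17.9, 3.13 and 3.61 FPKM with phloridzin, with overlap between all groups. Ifi44 (chr3:151730922-151749960, minus strand) was the only member whose control and model livers did not overlap. It was at 0.543, 1.11 and 0.683 FPKM in control livers 1 to 3 and at 2.58, 4.07 and 2.38 FPKM in the model group. With silibinin it was at 1.71, 2.02 and 0.894 FPKM, and with phloridzin at 14.2, 2.37 and 1.89 FPKM. No control liver reached the lowest model or phloridzin liver, while the silibinin group overlapped the control group and lay below the model group.

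Isg15 (chr4:156199424-156200818, minus strand) is coupled to proteins much as ubiquitin is, and Usp18 (chr6:121245906-121270917, plus strand) both removes it and restrains signalling at the type I interferon receptor. Isg15 was at 1.71, 3.66 and 2.63 FPKM in the control group, 2.09, 4.42 and 2.18 FPKM in the model group, 1.71, 1.92 and 0.937 FPKM with silibinin and 12.7, 2.54 and 1.73 FPKM with phloridzin. The silibinin livers lay below the model livers, and the control group overlapped both. Usp18 was the most abundant member per length, with 8.96 ± 3.79 FPKM in the control group, 10.7 ± 1.22 FPKM in the model group, 7.66 ± 3.18 FPKM with silibinin and 21.1 ± 19.3 FPKM with phloridzin (SD, n = 3 livers each). The values were 7.26, 13.3 and 6.33 FPKM in the control livers, 9.94, 10.03 and 12.1 FPKM in the model livers, 11.2, 6.91 and 4.93 FPKM with silibinin and 43.3, 10.6 and 9.42 FPKM with phloridzin. The value of phloridzin liver 1 was the highest of any member in any liver.

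The members also varied together inside the groups. Control liver 2 was the highest control liver for 9 of 9 members, as it was for 37.3% of all genes tested. Model liver 2 was the highest model liver for 8 of 9 members and for 26.7% of all genes. Silibinin liver 3 was the lowest silibinin liver for 9 of 9 members and for 53.4% of all genes, and phloridzin liver 1 was the highest of its group for 9 of 9 members and for 55.7% of all genes. The median residual SD of the members within groups was 0.71 on the log2(FPKM + 1) scale, and 0.40 without phloridzin liver 1. The same median over all genes tested was 0.24 and 0.22. These orders were looked for after the values had been seen.

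Differences between groups were tested by limma on log2(FPKM + 1) in one fit of the 12 livers, over 13158 genes with a mean of at least 0.5 FPKM. All 9 members were above this filter. Calls needed a Benjamini-Hochberg adjusted p under 0.05 and a mean difference beyond 1 or -1 on this log2 scale. The added 1 makes differences of genes with low values smaller. None of the 9 members was called by this limma fit in any of the 6 comparisons between the 4 groups. At an unadjusted p under 0.05, there was 1 member in model against control, phloridzin against silibinin and phloridzin against control, and 0 in the other comparisons. By voom of limma on recovered fragments, the number called was also 0 in each comparison, with the same counts at an unadjusted p under 0.05.

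CCl4 alone was compared in the model and control groups. Of all genes, 10.5% were called here and 45.8% had an unadjusted p under 0.05, against 0 and 1 of the 9 members. The member was Ifi44, with a log2 fold change of 1.16 (95% confidence interval 0.02 to 2.30, limma, adjusted p = 0.103), higher in 3 of 3 model livers than in any control liver. The count at an unadjusted p under 0.05 was 0 without any 1 of the control, model or silibinin livers. The groups did not overlap for 1 of 9 members and for 52.0% of all genes. Without phloridzin liver 1, which enters only through the shared estimate of the spread, the same difference of Ifi44 had an interval of 0.67 to 1.66 and an adjusted p of 0.0031 by limma, and 1 of 9 members and 11.1% of all genes were called. With only these 2 groups in the limma fit, its adjusted p was 0.0084, and with pseudocount 0.1 its difference was 1.84 (adjusted p = 0.047). Over the alternatives, the adjusted p of members ranged from 0.0023 to 1 here. The median log2 fold change of the members was 0.27, beside 0.34 over all genes tested. With a liver left out, the median of the members ranged from 0.064 (without model liver 2) to 0.50 (without control liver 2). Scaling by median ratios brought the median of all genes to 0.01 and that of the members to -0.11, and 2 of 9 members (Ifit2 and Ifi44) were then higher in the model group, where 8 of 9 were higher as deposited. Those that turned were Ifit3, Isg15, Irf7, Rsad2, Oasl1 and Usp18.

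Silibinin was compared with the model group. Of all genes, 4.0% were called and 29.2% had an unadjusted p under 0.05, and for both rules the count of members was 0 of 9. All 9 members had a lower mean of log2(FPKM + 1) with silibinin, with a median log2 fold change of -0.49 beside -0.15 for all genes. With a liver left out, this median ranged from -0.66 (without silibinin liver 1) to -0.30 (without silibinin liver 3). With median-ratio scaling, 3 of 9 (Ifit1, Ifit2 and Ifit3) were higher instead, and without silibinin liver 3 or without model liver 2 also 3 of 9. The groups did not overlap for 4 of 9 members, Isg15, Irf7, Rsad2 and Ifi44, and for 36.7% of all genes. The largest difference was that of Irf7, at -0.87 (95% confidence interval -2.05 to 0.31, limma, adjusted p = 0.32). Its interval without phloridzin liver 1 was -1.60 to -0.14 (limma, adjusted p = 0.098). At an unadjusted p under 0.05, there were 3 of 9 members without that liver and also with only these 2 groups in the fit. In both fits 0 members were called, and the genes called in total were 559 and 526. Their share of all genes at an unadjusted p is not given here.

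Phloridzin was compared with the model group. Of all genes, 3.52% were called and 27.8% had an unadjusted p under 0.05, again with 0 of 9 members for both. Without phloridzin liver 2 or without phloridzin liver 3, 1 of 9 had an unadjusted p under 0.05. The mean was higher with phloridzin for 9 of 9 members, with a median log2 fold change of 0.44 (-0.11 for all genes). The median of the members was 0.80 without phloridzin liver 2 and 0.96 without phloridzin liver 3. Without phloridzin liver 1 the median was -0.28 (-0.18 for all genes), only Ifit1 and Irf7 were higher than in the model group, and 4.85% of all genes and 0 of 9 members were called. The groups did not overlap for 0 of 9 members and for 30.6% of all genes. Ifit1 had a log2 fold change of 0.87 (95% confidence interval -0.40 to 2.15, limma, adjusted p = 0.37) with all livers and of 0.10 (-0.76 to 0.96) without phloridzin liver 1. The 7 other members were lower than in the model group without that liver, whereas all 9 were higher (median 0.20) when the level of Gm42418, a gene described below, was also a covariate.

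The drugs were compared directly. Of all genes, 0.0228% were called and 3.75% had an unadjusted p under 0.05. The genes called numbered 3, and 1 to 6 with a liver left out. The count of members was 0 of 9 called and 1 of 9 at an unadjusted p under 0.05. This was Irf7, at 1.78 (95% confidence interval 0.59 to 2.96, limma, adjusted p = 1), higher in 3 of 3 phloridzin livers than in any silibinin liver. It was at 1.07 (0.25 to 1.88, limma, adjusted p = 0.73) without phloridzin liver 1. The count at an unadjusted p under 0.05 changed when single livers were left out. It was 7 of 9 without phloridzin liver 3, 5 without phloridzin liver 2, 2 without silibinin liver 1 and 1 without phloridzin liver 1. In each of these fits 0 members were called, and the genes called in total were 2, 5, 5 and 6. The share of all genes at an unadjusted p in these fits is not given here. The groups did not overlap for 1 of 9 members and for 7.99% of all genes. The median difference of the members was 1.02 (0.03 for all genes), and without phloridzin liver 1 it was 0.32, with Ifit2 and Ifit3 lower with phloridzin. For the other 8 members the intervals included 0, with differences between 0.53 for Ifit3 and 1.09 for Ifi44, which does not show that the levels were alike.

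Each drug group was also compared with the control group. With silibinin, 1.98% of all genes were called, 21.5% had an unadjusted p under 0.05 and the groups did not overlap for 30.4%, with 0 of 9 members for each rule (1 at an unadjusted p under 0.05 without phloridzin liver 1). The median log2 fold change of the members was -0.20 (0.16 for all genes), with Ifit2, Ifit3 and Ifi44 higher, of which Ifit3 was lower with median-ratio scaling. That median ranged from -0.36 without control liver 3 to 0.092 without control liver 2, where 5 of 9 members were higher. It was -0.41 with median-ratio scaling and -0.48 with the Gm42418 covariate. With phloridzin, 3.02% of all genes were called, which were 398 genes, and 214 to 635 with a liver left out. An unadjusted p under 0.05 was found for 24.6%, and 29.8% did not overlap. The members called, at an unadjusted p under 0.05 and without overlap were 0, 1 and 1 of 9. The member was Ifi44, with a log2 fold change of 1.59 (95% confidence interval 0.45 to 2.72, limma, adjusted p = 0.086), higher in 3 of 3 phloridzin livers. The same difference without phloridzin liver 1 was 0.82 (0.27 to 1.38, limma, adjusted p = 0.0997). At an unadjusted p under 0.05, the count was 6 of 9 without phloridzin liver 3, 3 without phloridzin liver 2 and 1 without phloridzin liver 1. It was 2 without control liver 2 and 2 without silibinin liver 3. The genes called in total were 635, 331 and 245 without phloridzin livers 3, 2 and 1. The share of all genes at an unadjusted p in these fits is not given here. Ifi44 was called without phloridzin liver 3 (2.02, limma, adjusted p = 0.041) and with pseudocount 0.1 (2.28, limma, adjusted p = 0.046), and over the alternatives the adjusted p of members ranged from 0.017 to 0.977. All 9 members were higher with phloridzin (median 0.86, and 0.18 for all genes), and 5 of 9 without phloridzin liver 1 (median 0.09).

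**Figure D2:**
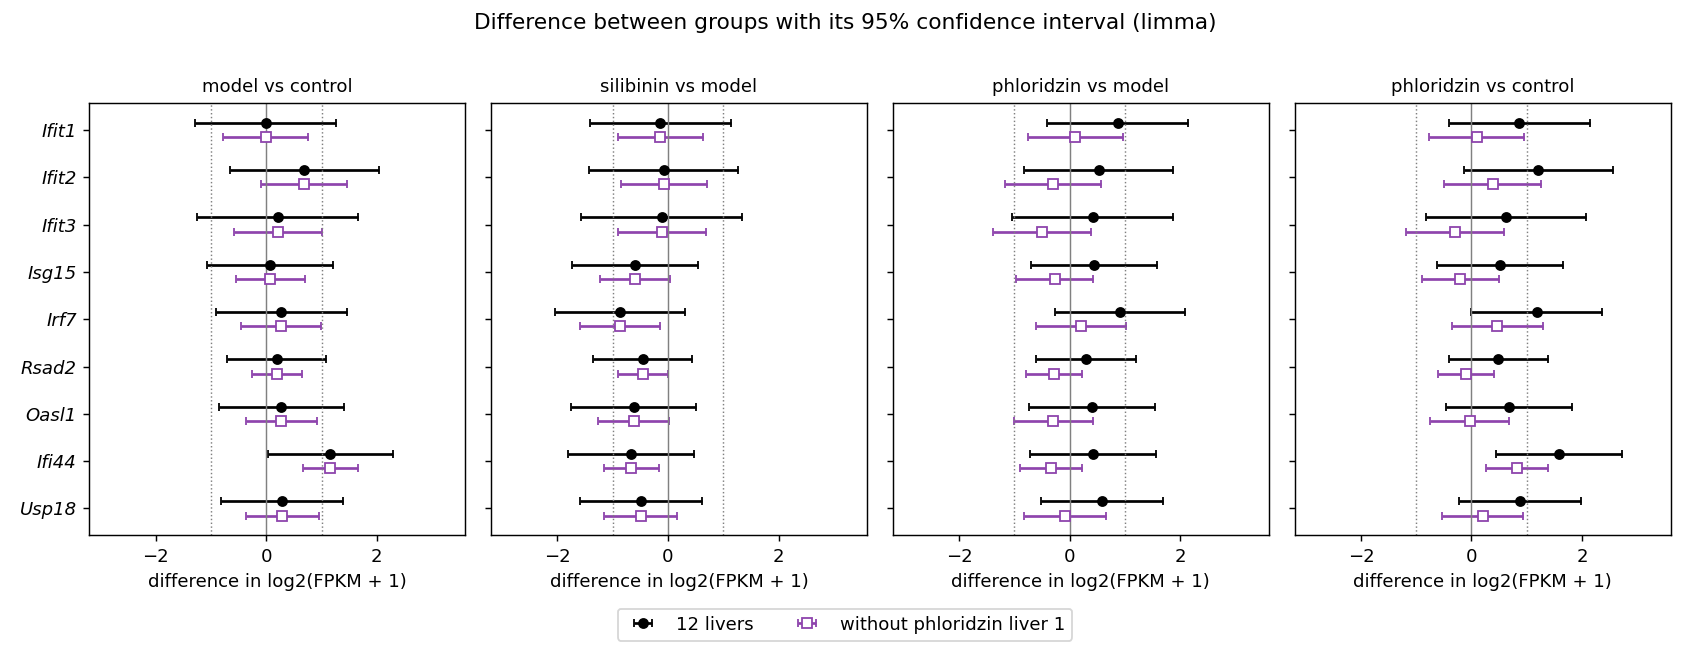
Difference in mean log2(FPKM + 1) between groups (horizontal axes) for the 9 members (vertical axis), with 95% confidence intervals from limma; filled circles are from 12 livers and open squares from the fit without phloridzin liver 1, and dotted lines mark -1 and 1. In phloridzin against model, Ifit1 moves from 0.87 to 0.10 without that liver, and in model against control the interval of Ifi44 narrows to 0.67 to 1.66.

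The other genes of the pathway were taken from a list of 110 genes that leaves out the members, of which 95 passed the filter. Of 11 ligands listed, only Ifng, Ifnk and Ifna5 were found in the table. These 3 had at most 0.178 FPKM in any liver, and Ifna5 was listed above 0 only in phloridzin liver 1 (0.0687 FPKM). Ifng was listed at 0 in that liver, as in control liver 2 and silibinin liver 2. Levels this low rest on few fragments. The levels of the other 8, Ifnb1, Ifna1, Ifna2, Ifna4, Ifna6, Ifne, Ifnl2 and Ifnl3, are not known here. Among 5 receptor genes tested, 2 rose in the model group, Ifngr1, the ligand-binding chain of the interferon-gamma receptor, and Il10rb. The level of Ifngr1 was 10.1 ± 1.22 FPKM in control livers and 33.3 ± 4.75 FPKM in model livers (SD, n = 3 each), which is a rise of 1.63 on the log2 scale. The type I receptor chains were not called (Ifnar1 had an adjusted p of 0.045 by limma with a log2 fold change of 0.50), with 3.47 ± 0.195 and 5.37 ± 0.861 FPKM for Ifnar1 and 20.5 ± 6.82 and 14.6 ± 4.78 FPKM for Ifnar2 in the control and model groups (SD, n = 3 livers each).

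Of the 6 signalling genes, Irf9, the DNA-binding partner of Stat2, fell in the model group by 1.03 on the log2 scale (limma, adjusted p = 0.028), from 10.3 ± 1.87 to 4.74 ± 1.88 FPKM (SD, n = 3 livers each). Stat2 was at 7.19 ± 1.08 and 13.5 ± 4.44 FPKM in the control and model groups (SD, n = 3 livers each) and at 13.3 FPKM in phloridzin liver 1. Stat2 was not called in any of the 6 comparisons. Its highest level was 18.3 FPKM, in model liver 1.

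In model against control, 14 of the 95 pathway genes rose and 1 fell, beside 9.42% of all genes that rose and 1.08% that fell. The largest rise was that of Cxcl10, a chemokine that draws T cells, which averaged 0.53 ± 0.24 FPKM in control and 12.5 ± 0.907 FPKM in model livers (SD, n = 3 each). Its log2 difference was 3.15 (limma, adjusted p = 1.6e-04, SE 0.33). The GTPase Gbp2 rose by 1.81, the chemokine Cxcl9, listed at 0 in each control liver, by 1.64, the feedback inhibitor Socs3 by 1.59 and the adaptor Myd88 of Toll-like receptors by 1.48 on the log2 scale. By list, 5 of 17 genes of the interferon-gamma response rose, 3 of 16 sensors and their factors, 2 of 5 negative regulators and 2 of 46 further effectors (4 without phloridzin liver 1). Mx1 (0.186 ± 0.113 and 0.495 ± 0.582 FPKM), Oas2 (0.498 ± 0.531 and 0.87 ± 0.0509 FPKM), Oasl2 (3.44 ± 1.5 and 6.9 ± 1.1 FPKM) and Ifit3b (1.72 ± 1.25 and 1.92 ± 0.247 FPKM in control and model, SD, n = 3 livers each) were not called. The count of 15 pathway genes called was 9 without control liver 3, 8 without model liver 2 and 7 with median-ratio scaling, 5 higher and 2 lower. That scaling also moved the share of higher genes among all genes called from 89.7% to 53.7%.

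With silibinin, 4 of 95 pathway genes fell against the model group and 0 rose, by limma, beside 3.25% and 0.745% of all genes. Of those with a higher mean, 0 had an unadjusted p under 0.05, and 0 rose by voom. Cxcl10 fell by 2.53 to 1.42 ± 0.79 FPKM (SD, n = 3 livers, limma, adjusted p = 9.5e-04). Socs3 fell by 1.39, the exonuclease Isg20 by 1.08 and the membrane protein Ifitm1 by 1.05 on the log2 scale. The count was 2 without model liver 2 and also without silibinin liver 1, and 1 with median-ratio scaling, where 44.0% of all genes called were higher (18.6% as deposited). With phloridzin, 2 fell and 1 rose, beside 2.92% and 0.600% of all genes. Cxcl10 fell by 2.00 to 2.67 ± 1.73 FPKM (SD, n = 3 livers, limma, adjusted p = 0.0038), and by 2.34 without phloridzin liver 1 (limma, adjusted p = 0.0012). Socs3 fell by 1.54 (limma, adjusted p = 0.029), which without phloridzin liver 1 was -1.25 (limma, adjusted p = 0.07). Ube2l6, the enzyme that passes Isg15 to its ligases, rose by 1.33 (limma, adjusted p = 0.0067). It was at 43.6, 22.2 and 26.3 FPKM in the phloridzin livers and at 12, 11.9 and 9.51 FPKM in the model livers, and rose by 1.06 (limma, adjusted p = 0.0097) without phloridzin liver 1. The count with phloridzin was 6 without model liver 3. With median-ratio scaling, 1 rose and 1 fell, and 36.9% of all genes called were higher (17.1% as deposited). Both drug groups were compared with the same model livers, so their values are not independent. Between the drugs, 0 of 95 pathway genes were called by limma and by voom, with 5 and 4 at an unadjusted p under 0.05. By limma, 0.0228% of all genes were called there and 3.75% had an unadjusted p under 0.05. Against the control group, 2 of 95 rose with silibinin, Irf8 by 1.09 and Ciita by 1.15 on the log2 scale. With phloridzin, 4 of 95 rose against control, Gbp2 by 1.94, Ube2l6 by 1.37, Tgtp1 by 1.33 and Irf8 by 1.18. Among all 13158 genes tested, 229 and 360 rose in these 2 comparisons. Without phloridzin liver 1, the differences of Gbp2, Ube2l6 and Irf8 were 1.45, 1.10 and 1.01 and were called by limma, and that of Tgtp1 was 0.94 and was not.

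**Figure D3:**
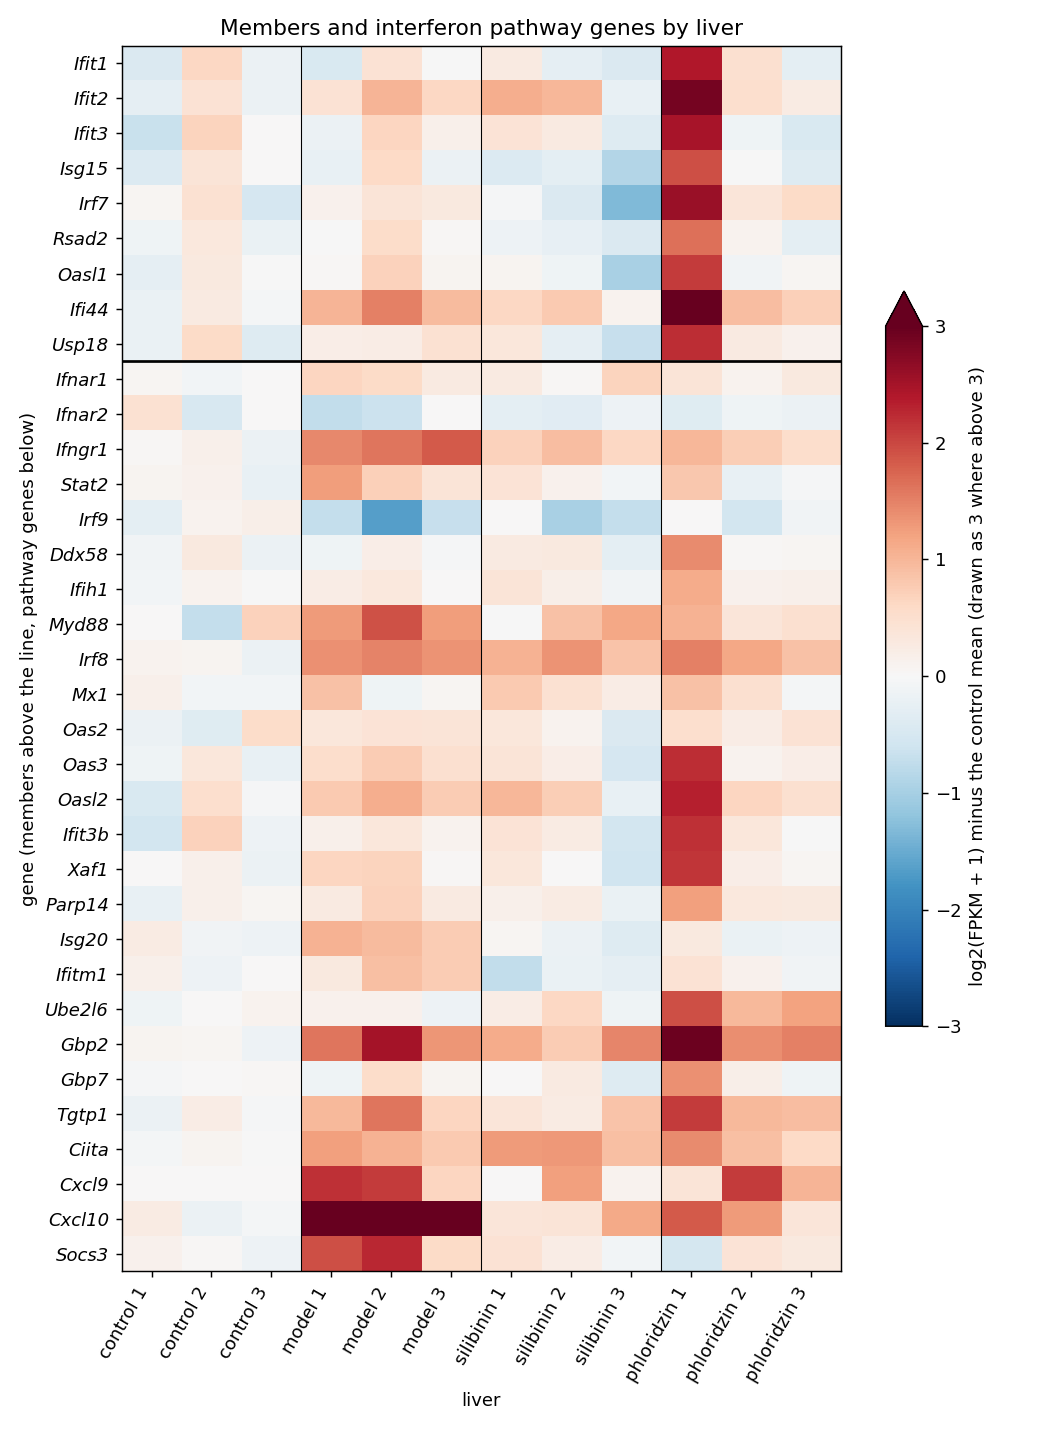
Color gives log2(FPKM + 1) of a gene in a liver minus the mean of the 3 control livers, from -3 (blue) to 3 (red, also for values above 3), for the 9 members and other genes of the pathway (vertical axis) in the 12 livers (horizontal axis). Phloridzin liver 1 is red for the members and for Oas3, Oasl2, Ifit3b and Xaf1, while Cxcl10 is high in the 3 model livers.

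Phloridzin liver 1 was also the highest of the 12 livers for 39 of 47 further effectors, 12 of 17 genes of the interferon-gamma response and 8 of 17 sensors and their factors. The same held for 2 of 6 receptor genes, 2 of 6 negative regulators and 1 of 6 signalling genes, beside 19.5% of all genes tested. The signalling genes Irf9 and Stat2 were not at their highest there. The 8 genes outside the members whose level over the 12 livers was most like the mean z-score of the members were Oas3 (Pearson r = 0.97), Ifit3b (0.97), Xaf1 (0.95), Ddx58 (0.94), Gbp7 (0.94), Parp14 (0.94), Trim30c (0.94) and Ifih1 (0.93). Without phloridzin liver 1, r over 11 livers was 0.88, 0.87, 0.78, 0.71, 0.75, 0.85, 0.80 and 0.69 in the same order. Other genes were then more alike. Xaf1, Gbp7, Ddx58 and Ifih1 ranked 34, 51, 134 and 173 of the genes tested, Trim30c ranked 20, and Gm6548, Tbc1d15, Gm24451, Hist3h2a and Lgals3bp stood among the 8 closest beside Oas3, Ifit3b and Parp14. Without that liver and silibinin liver 3, the 2 farthest from the median of the score, it was between 0.55 for Ddx58 and 0.81 for Oas3. Spearman's rho over 12 livers was between 0.67 for Ifih1 and 0.89 for Ifit3b. These values describe 12 livers of 4 groups, and the livers of a group share its treatment. Trim30c is the only one of the first 8 outside the pathway list.

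The transcripts behind the sums were looked at in phloridzin liver 1. Ifit1, Ifit3 and Isg15 each have 1 transcript in the table. For Ifit2, Rsad2, Ifi44 and Usp18, the main transcript held between 86.1% and 98.4% of the gene's FPKM in this liver. For Oasl1, 47.6% came from ENSMUST00000140159 (chr5:114923435-114936067), at 8.53 FPKM there and listed at 0 in the other 11 livers, while the main transcript ENSMUST00000112143 was at 6.81 FPKM there and at most 5.60 FPKM elsewhere. For Irf7, 35.4% came from the 687-base transcript ENSMUST00000127161, at 11.8 FPKM there and at most 1.92 FPKM elsewhere, and 27.5% from ENSMUST00000106023, at 9.12 FPKM there and at most 3.18 FPKM elsewhere. How the assembler divided fragments between overlapping transcripts can move such values.

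Promoters of the members are shown because the members varied together. Of the 9 members, 8 were matched by symbol in a RefSeq promoter table of build GRCm38.p6. The motif GAAANNGAAA was searched on both strands in the 250 bases before each start. It was found for 4 members, Ifit1, Ifit3, Isg15 and Rsad2, and in 2.98% of 32851 promoters of the same length. The windows of Ifit2, Irf7, Oasl1 and Ifi44 do not hold these letters. Those of Irf7 (chr7:141266425-141266674) and Ifi44 (chr3:151749911-151750160) and a window of Ifit2 (chr19:34550838-34551087) overlap transcripts of the table. The window of Ifit1 (chr19:34640639-34640888, plus strand) ends inside the transcript of the table, and its sequence is not shown. The others run 5′ to 3′ on the strand of the gene, with matches in capitals. For Ifit1, Ifit3 and Rsad2 the match is on the opposite strand and reads as its reverse complement, and the 3 matches of Isg15 overlap. The sequences lie at chr19:34583279-34583528 (plus strand) for Ifit3, chr4:156200819-156201068 (minus strand) for Isg15 and chr12:26456453-26456702 (minus strand) for Rsad2.
Ifit3: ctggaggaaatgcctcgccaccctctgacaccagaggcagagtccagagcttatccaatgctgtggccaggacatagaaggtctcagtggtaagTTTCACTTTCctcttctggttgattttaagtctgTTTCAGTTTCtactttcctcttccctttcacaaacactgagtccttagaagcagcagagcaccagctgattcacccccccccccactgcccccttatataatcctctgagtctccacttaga
Isg15: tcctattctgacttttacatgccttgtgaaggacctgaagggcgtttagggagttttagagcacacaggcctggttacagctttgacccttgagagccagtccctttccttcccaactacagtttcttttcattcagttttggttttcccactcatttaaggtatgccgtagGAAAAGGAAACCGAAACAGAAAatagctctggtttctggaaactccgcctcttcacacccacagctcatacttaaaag
Rsad2: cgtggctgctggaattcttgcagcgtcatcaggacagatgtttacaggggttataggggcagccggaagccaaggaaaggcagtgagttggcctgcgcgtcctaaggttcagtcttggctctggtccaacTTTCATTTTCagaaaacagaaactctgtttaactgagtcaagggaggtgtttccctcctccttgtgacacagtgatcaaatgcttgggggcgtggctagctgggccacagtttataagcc
The matches begin 104 and 85 bases before the start for Ifit1, 156 and 122 for Ifit3, 78, 72 and 66 for Isg15 and 120 for Rsad2. Ifit3b has 2 matches, 188 and 154 bases before its start. A match is a description of the letters and no measure of binding.

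Markers of other cells were listed to see which of them moved with the members. Markers of T and NK cells were at their highest summed level in phloridzin liver 1, and 5 of 7 were highest there. Their sums were 1.85, 3.04 and 1.83 FPKM in the control livers, 3.28, 6.47 and 5.07 in the model livers, 2.30, 4.59 and 5.78 with silibinin and 11.3, 6.76 and 4.50 with phloridzin. The most abundant was Nkg7, with a mean of 1.26 FPKM, none was at 0 in phloridzin liver 1, and Cd3d, Cd8a and Ncr1 were under the filter. Markers of monocytes and macrophages summed to 54.8, 103 and 94.0 FPKM in the control livers, 257, 372 and 365 in the model livers, 335, 407 and 253 with silibinin and 449, 411 and 214 with phloridzin. Of these, 3 of 8 were highest in phloridzin liver 1, and Lyz2 was the most abundant (mean 202 FPKM). Stellate cell and myofibroblast markers summed to 30.1, 20.5 and 29.2 FPKM in the control livers, 152, 128 and 163 in the model livers, 155, 151 and 71.1 with silibinin and 219, 88.9 and 68.2 with phloridzin, with 2 of 7 highest in phloridzin liver 1 and Col3a1 the most abundant (mean 43.1 FPKM). The part of these cells in the members' levels was not tested. Plasmacytoid dendritic cells, a main source of type I interferon, had all 5 markers under the filter, with sums between 0.387 and 2.66 FPKM over the 12 livers and 1.91 FPKM in phloridzin liver 1. All 8 hepatocyte markers were above 0 in every liver, with Alb the most abundant (mean 18384 FPKM). Of these, 3 were at their lowest of the 12 livers in phloridzin liver 1. Ttr was at 10.3 FPKM there, at 39.8 FPKM in control liver 1 and between 706 and 2530 FPKM in the other 10, Tat was at 69.2 FPKM (next lowest 200) and Hnf4a at 88.7 FPKM (next lowest 101), while Serpina1a was at its highest there (1269 FPKM). Of the other lists, 3 of 6 Kupffer cell, 2 of 6 sinusoidal endothelium, 2 of 5 cholangiocyte, 0 of 6 neutrophil and 0 of 5 B and plasma cell markers were highest in phloridzin liver 1.

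The gene Gm42418 was singled out after its values had been seen, because it differed between livers of the same group far more than the members. It was at 23.6, 4007 and 1.53 FPKM in control livers 1 to 3, at 234, 2639 and 137 FPKM in the model group, at 3093, 2901 and 2.72 FPKM with silibinin and at 4075, 1.81 and 5.15 FPKM with phloridzin. In each group, the liver with the most Gm42418 was also the one with the highest mean log2(FPKM + 1) of the 9 members. Control liver 2 and phloridzin liver 1 had nearly the same level of Gm42418, and mean member levels of 2.56 and 4.48 on the log2 scale. With log2(FPKM + 1) of Gm42418 as a covariate, also chosen after the values were seen, limma called Irf7 in phloridzin against model (1.37, adjusted p = 0.012) and against silibinin (2.17, adjusted p = 0.035), and Ifit2, Irf7 and Ifi44 against control (1.303, 1.26 and 1.65, adjusted p = 0.031, 0.017 and 0.017). Over the alternatives and comparisons with phloridzin, the adjusted p of members ranged from 0.012 to 1. At an unadjusted p under 0.05, the covariate fit of 12 livers had 7 of 9 members in phloridzin against model, 8 against silibinin and 6 against control. In this fit, 422, 5 and 534 of 13157 genes were called in these comparisons. When phloridzin liver 1 was also left out, the counts of members were 1, 5 and 3 of 9, and 483, 2 and 250 genes were called. The share of all genes at this unadjusted p is not given here for the covariate fits, so the counts of members have no background beside them. These calls and counts rest on a covariate picked from the same 12 livers. With the same covariate and without phloridzin liver 1, Irf7 was at 0.84 against model (limma, adjusted p = 0.048), 1.66 against silibinin (0.071) and 0.84 against control (0.047) and Ifit2 at 0.77 against control (0.096), and none of these was called. Ifi44 was called against control (1.04, limma, adjusted p = 0.026), as it was in model against control (1.01, limma, adjusted p = 0.0023). In silibinin against model, this fit gave Irf7 -0.83 (limma, adjusted p = 0.010) and Ifi44 -0.64 (0.024), with 6 of 9 members at an unadjusted p under 0.05, and in silibinin against control it gave Irf7 -0.82 (0.023), with 4 of 9. None of these was beyond -1, so none was called. Over all genes, 535 and 348 of 13157 were called in these 2 comparisons. With all 12 livers and the covariate, the adjusted p of Irf7 was 0.064 and 0.083 in these 2 comparisons, and over the alternatives the adjusted p of members ranged from 0.010 to 1 and from 0.023 to 1. The covariate also changed directions without phloridzin liver 1, where 9 of 9 members were higher with phloridzin against model, silibinin and control, in place of 2, 7 and 5 of 9 without the covariate. In model against control, 2 of 9 members were higher with the covariate and 6 of 9 when phloridzin liver 1 was also left out. The labels give no RNA integrity value, no removal of ribosomal RNA and no batch for any liver, and whether the level of Gm42418 follows RNA quality or the making of the libraries was not tested.

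**Figure D4:**
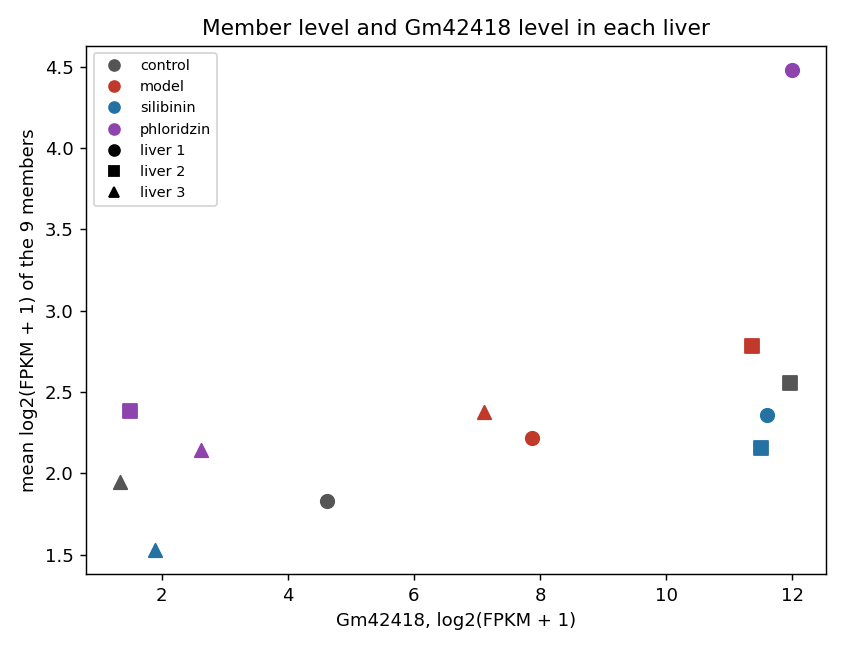
Mean log2(FPKM + 1) of the 9 members (vertical axis) against log2(FPKM + 1) of Gm42418 (horizontal axis), with 1 symbol per liver, colored by group and shaped by sample number. Phloridzin liver 1 lies at 4.48 on the vertical axis, above all other livers, and control liver 2 at 2.56 with nearly the same level of Gm42418.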

How the data were processed

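RNA from 12 livers in 4 groups of 3 was sequenced by the authors, who deposited 1 FPKM value per transcript and liver for 169430 transcripts. The submitters' processing notes name FastQC 0.11.5, HISAT2 2.1.0, StringTie 1.3.3b, DESeq 1.28.0 and build mm10. Deposited FPKM are scaled by length and library size and carry no counts, so the main test was limma on the log scale. Low values of transcripts of at least 1500 bases came out as whole multiples of a step (98.6% to 99.2% of them, within 0.05), which gave 83.6 to 110.65 M fragments per liver and the recovered fragments used for voom.

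FPKM were summed per symbol, filtered at a mean of 0.5 and tested as log2(FPKM + 1) by limma 3.58.1 (R 4.3.3) with a variance trend, on group only. The fit was tested on simulated livers with independent noise, which did not include a liver that stands apart or genes that vary together. Tables and figures were made with Python 3.11.15, pandas 2.3.3, numpy 2.4.6 and matplotlib 3.10.9. Named pathway genes are up to 6 called per comparison with the largest change, a fixed set, and the 8 genes most like the members. A gene of the fixed set is not reported here. The members and lists were chosen with earlier results of these data known. No member was under the filter, so no permutation test was needed. Alternatives covered the pseudocount, filter, scaling, transcripts, groups in the fit, a replicate block, the fold change cutoff, voom and each liver left out. The Gm42418 covariate, with and without phloridzin liver 1, was added after the data were seen.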

Additional observations from a re-analysis of the deposited data

Results flagged for a closer look

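Irf7 was lower in every silibinin liver and higher in every phloridzin liver than the mean of the model livers on the log2(FPKM + 1) scale. The log2 fold changes of phloridzin and silibinin against the model group differed by 1.78. This is the direct difference between the drugs, which limma did not call (adjusted p = 1, higher in 3 of 3 phloridzin livers than in any silibinin liver). Without phloridzin liver 1 it was 1.07 (limma, adjusted p = 0.73), and with the Gm42418 covariate, chosen after the data were seen, 2.17 (limma, adjusted p = 0.035). With this covariate and without phloridzin liver 1 it was 1.66 and not called (limma, adjusted p = 0.071). Over the alternatives, the adjusted p of members in this comparison ranged from 0.035 to 1.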

How the results depend on the processing

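Each count of members called was recomputed under 11 alternatives and with each liver left out, and each log2 fold change of the 9 members under the same except the fold change cutoff, which does not change it. Of 1188 fold changes, 1125 kept their direction and their side of the thresholds, 12 kept their direction and were called, and 51 had the other direction. With pseudocount 0.1, the number of members called was 1 in model against control and 1 in phloridzin against control, Ifi44 in both, and with only the 2 groups compared it was 1 in model against control. With the Gm42418 covariate it was 1 in phloridzin against model, 1 against silibinin and 3 against control, and 1 pathway gene was called between the drugs. With this covariate and phloridzin liver 1 left out, both chosen after the data were seen, it was 1 (Ifi44) in model against control and 1 (Ifi44) in phloridzin against control. With each liver left out, it ranged from 0 to 1 in model against control and from 0 to 1 in phloridzin against control, and was 0 in the other comparisons. The pathway genes called in model against control (15) were 7 with median-ratio scaling, 8 with the most abundant transcript, 28 with no fold change cutoff and 8 to 17 with a liver left out. In silibinin against model (4) they were 1 with median-ratio scaling, 8 with no fold change cutoff and 2 to 5 with a liver left out. In phloridzin against model (3) they were 8 with no fold change cutoff, 5 by voom and 2 to 6 with a liver left out. The causes were not tested, other than that fewer livers, genes or transcripts enter some of these fits.

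With median-ratio scaling, the log2 fold change in model against control was -0.15 for Ifit3, -0.25 for Isg15, -0.10 for Irf7, -0.18 for Rsad2, -0.082 for Oasl1 and -0.11 for Usp18. In silibinin against model it was 0.018 for Ifit1, 0.079 for Ifit2 and 0.058 for Ifit3, and in silibinin against control -0.10 for Ifit3. With the Gm42418 covariate it was -0.21 for Ifit3, -0.24 for Isg15, -0.11 for Irf7, -0.055 for Rsad2, -0.066 for Oasl1 and -0.037 for Usp18 in model against control, and -0.25 for Ifit3 in silibinin against control. With phloridzin liver 1 also left out it was -0.025 for Ifit3 and -0.098 for Isg15 in model against control, and -0.10 for Ifit3 in silibinin against control. By voom, Ifit1 was at 0.024 in model against control.

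With each liver left out, phloridzin against model ranged from -0.31 to 1.00 for Ifit2, -0.50 to 0.96 for Ifit3, -0.27 to 0.89 for Isg15, -0.28 to 0.69 for Rsad2, -0.30 to 0.80 for Oasl1, -0.34 to 0.86 for Ifi44 and -0.086 to 0.96 for Usp18. Phloridzin against control ranged from -0.29 to 1.17 for Ifit3, -0.20 to 0.96 for Isg15, -0.095 to 0.88 for Rsad2 and -0.028 to 1.07 for Oasl1, and phloridzin against silibinin from -0.24 to 1.08 for Ifit2 and -0.39 to 1.07 for Ifit3. The lowest values are those without phloridzin liver 1. Model against control ranged from -0.23 to 0.30 for Ifit1, -0.13 to 0.54 for Ifit3 and -0.19 to 0.26 for Isg15. Silibinin against model ranged from -0.37 to 0.082 for Ifit1, -0.31 to 0.35 for Ifit2 and -0.30 to 0.13 for Ifit3, and silibinin against control from -0.37 to 0.16 for Ifit1, -0.24 to 0.43 for Ifit3 and -0.48 to 0.092 for Usp18.

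The sample numbers do not pair the livers. The correlation of deviations from the group means was over 0.1 for 1 of 18 same-numbered pairs, and 2 of 12 livers correlated best with their own number. With the number as a replicate block, the members called were 0 in each comparison, and 14 pathway genes were called in model against control, 4 with silibinin and 3 with phloridzin against the model group, and 0 between the drugs. With 3 livers a group, the spread between livers sets the width of each interval. What depth adds to it was not tested.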

Other observations

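Ifi27l2a, a gene of the pathway list that the naming rule did not pick and that was chosen after its values were seen, was at 80.9 FPKM in phloridzin liver 1, 21.2 FPKM in phloridzin liver 2 and at most 3.15 FPKM in the other 10 livers.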
